A study of Mus musculus with 40 samples.

Results

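TRIM, FBXO and ASB genes encode 3 families of ubiquitin ligase components, and their messenger RNA was followed in mouse skeletal muscle across treadmill running, wheel access and the time of day. The genes were taken by symbol (Trim, Fbxo or Asb followed by digits), without the atrophy ligases Trim63, Fbxo30 and Fbxo32. Of 108 such genes in the table of 23621, 71 reached 1 CPM (the count scaled by library size) in at least 3 of 40 libraries: 32 of 56 TRIM, 23 of 34 FBXO and 16 of 18 ASB genes. Beyond the symbol the rule used only this level, but it was set with earlier results of these data known. Of the 71, 67 reached 1 CPM in all 40 libraries, and the others were Trim21 (39 libraries), Trim14 (35), Trim62 (23) and Trim67 (11). The 37 genes left out reached it in no library, and the nearest, Trim36 and Trim46, peaked at 0.964 and 0.943 CPM. All 71 passed the filter on low counts in both muscles and were tested.

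Ubiquitin ligases pick the proteins that are tagged with ubiquitin, most often for the proteasome. Most TRIM proteins are single-chain ligases with a RING domain, a B-box and a coiled coil. FBXO proteins carry an F-box that docks on Skp1 and Cul1, and ASB proteins carry ankyrin repeats and a SOCS box that docks on elongins and Cul5, so both serve as exchangeable substrate receptors of cullin ligases. In muscle such ligases are known for the turnover of sarcomere and cytoskeletal proteins, and Trim63 (MuRF1) and Fbxo32 (atrogin-1) for the protein loss of atrophy.

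All mice were C57BL/6. Quadriceps came from mice that had been run to exhaustion on a treadmill, starting at zeitgeber time (ZT, hours from lights on) 0 or 12, and were sampled when the run ended (+0h) or 3 h later (+3h). The labels place these samples at ZT0.5 and ZT3.5 and at ZT12.5 and ZT15.5. Sedentary mice gave quadriceps at ZT0, ZT4, ZT12 and ZT16, and each of these 8 quadriceps groups had 3 mice. Gastrocnemius came from mice with a running wheel by day or by night, sampled at ZT4 or ZT16, in 4 groups of 4. The gastrocnemius data used here hold no group without a wheel, and neither how long the mice ran nor their age is used here. Each library carries its own animal tag in the labels, which is read here as 1 mouse per library.

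Totals ran from 27352875 to 79491649 estimated counts per library in quadriceps and from 45010256 to 70033483 in gastrocnemius. As a check for muscle tissue, 8 muscle markers together held 117000 to 181000 CPM across the 40 libraries. These markers cannot tell quadriceps from gastrocnemius, so they do not check which muscle a label names. Markers of other tissue varied between libraries of 1 group: summed adipocyte markers ran from 457 to 2410 CPM in sedentary ZT12 quadriceps and from 155 to 207 CPM across night-wheel ZT16 gastrocnemius, and summed slow-fibre markers from 974 to 4700 CPM in sedentary ZT0 quadriceps. Summed fast-fibre markers did not overlap in 3 comparisons. They stood at 202000 to 206000 CPM at +0h in the ZT12 session, against 161000 to 183000 in sedentary ZT12 muscle, and at 177000 to 194000 CPM at +3h, against 143000 to 165000 in sedentary ZT16 muscle. In sedentary muscle they stood at 161000 to 183000 CPM at ZT12, against 136000 to 154000 at ZT0, and summed lymphocyte markers at 0.862 to 0.927 CPM at ZT16, against 1.14 to 1.55 at ZT4. The summed muscle markers did not overlap in the same 3 comparisons, nor at +0h in the ZT0 session (134000 to 169000 CPM, against 117000 to 132000 in sedentary ZT0 muscle). Summed erythroid markers stood at 224 to 328 CPM at +0h in the ZT12 session, against 188 to 218 in sedentary ZT12 muscle. The part of these markers in the results was not tested. Bulk RNA cannot tell fewer cells of a type from less RNA per cell, and this holds for every value below. Every difference was tested in 1 edgeR quasi-likelihood fit per muscle, adjusted by the Benjamini-Hochberg method over all 15097 genes in quadriceps or 14523 in gastrocnemius. A gene passed at an adjusted p under 0.05, and fold changes are log2 values with standard errors (SE).

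Levels between genes were compared as CPM per kb of transcript, averaged over libraries. In quadriceps the highest were Asb2 at 298 CPM per kb, a filamin-targeting receptor, and Trim54 (MuRF3), a relative of MuRF1 at the sarcomere and microtubules, at 264. Asb5 followed at 118, Trim72 (MG53), which takes part in membrane repair, at 89.7, Asb10 at 88.5 and Asb8 at 85. The most abundant FBXO genes per kb were Fbxo40, a muscle F-box protein that targets the insulin receptor substrate Irs1, at 51.3 CPM per kb and Fbxo31 at 41.1. In quadriceps the median was 20.65 CPM per kb for the ASB genes, 4.77 for the FBXO genes and 4.23 for the TRIM genes, and in gastrocnemius 18.25, 4.6 and 4.39. At 10 CPM per kb or more in quadriceps stood 9 of 16 ASB, 5 of 23 FBXO and 7 of 32 TRIM genes.

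**Figure D1:**
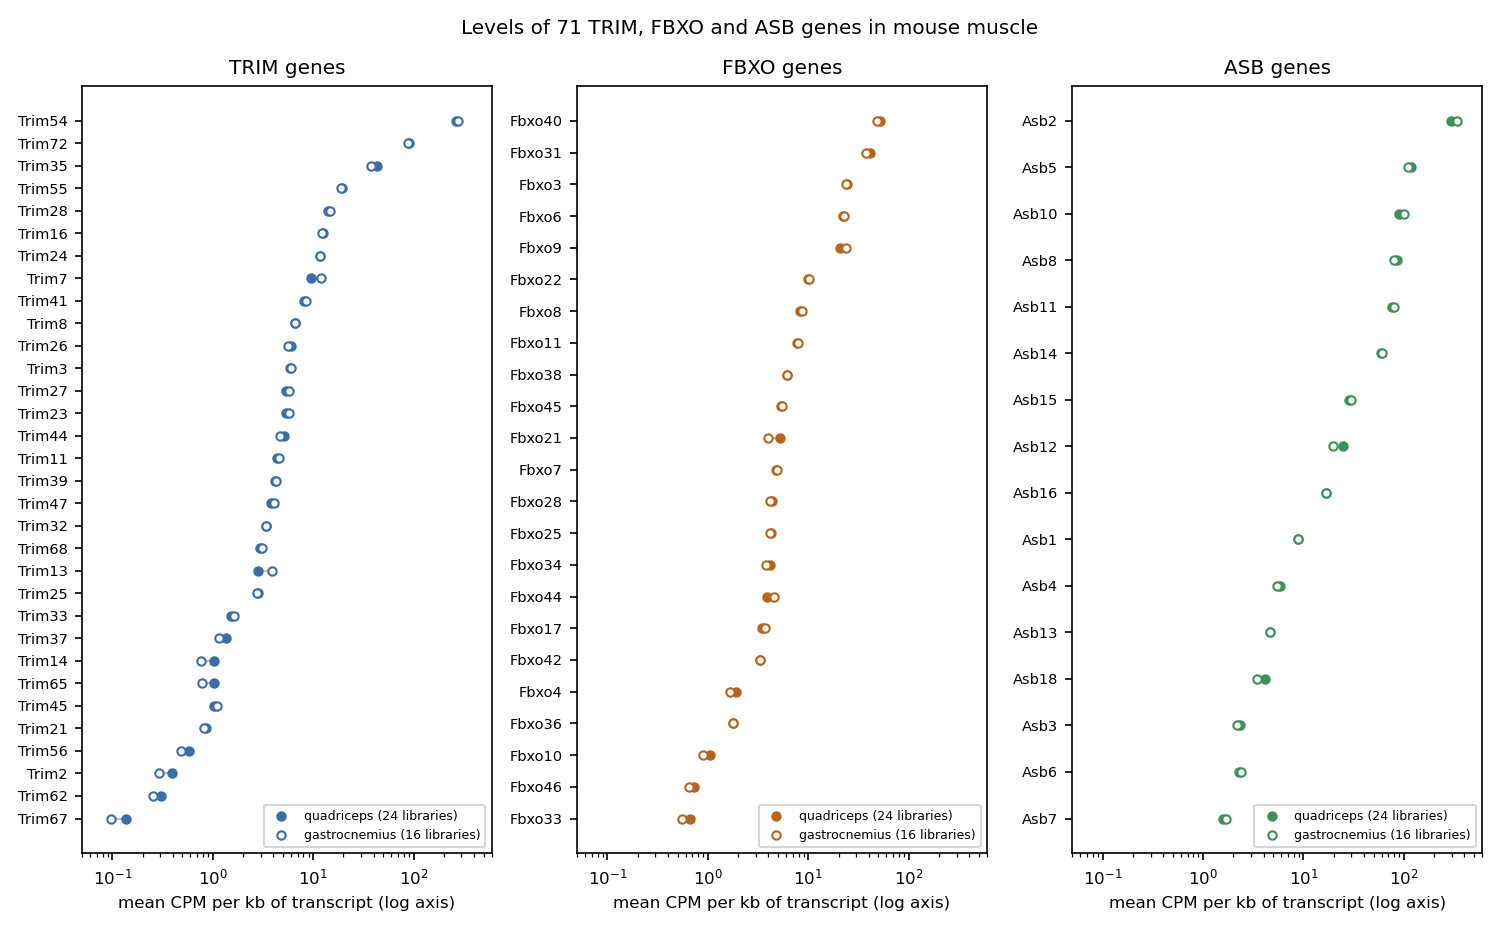
Mean CPM per kb of transcript (log axis) of the 71 genes, by family, in quadriceps (filled, 24 libraries) and gastrocnemius (open, 16 libraries). Asb2 (298 and 336 CPM per kb) and Trim54 (264 and 276) lead, and the median ASB gene stands above the median gene of the other families in both muscles.

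On the log2 CPM scale the range of the 8 quadriceps group means had a median of 0.43 over the 71 genes, against 0.51 over all genes tested, beside a median SD within groups of 0.10 for the members. Of the 71 ranges 41 (57.7%) were under 0.5, against 49.2% of all genes. In gastrocnemius, with 4 groups, the median range was 0.23, against 0.25 over all genes, and 60 of 71 (84.5%) were under 0.5, against 77.2%. The widest in quadriceps were Fbxo21 (range 1.6), Asb2 (1.44), Trim67 (1.19, with group means of only 0.585 to 1.7 CPM), Trim21 (1.11) and Asb18 (1.09). In gastrocnemius the widest was Trim7 (1.02). Over the 14 comparisons made, 51 of the 71 genes (71.8%) passed in at least 1 and 20 in none, beside 53% of the 14481 genes tested in both muscles that passed in at least 1. The sets are unlike in level: all genes tested had to pass only the filter on low counts, not the 1 CPM asked of the members. This holds for every share of all genes given here except those for promoters, and the part of level in these gaps was not tested. The 20 included Trim72 and Trim32, whose human counterpart is mutated in a limb-girdle dystrophy.

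In sedentary quadriceps the member with the smallest p over the day was Asb2, which is on chromosome 12 (103321142 to 103356001, GRCm38.p6). It had 886, 965 and 940 CPM at ZT0, 784, 728 and 705 at ZT4, 327, 402 and 375 at ZT12 and 610, 659 and 711 at ZT16. Every ZT12 library was lower than every library of the other 3 times (34.5% of all genes did not overlap between ZT12 and ZT0). Asb2 fell at ZT12 relative to ZT0, with a log2 fold change of -1.34 (SE 0.12, edgeR adjusted p = 2.61e-07). Fbxo21 (chromosome 5, 117976770 to 118010198), a FoxO-driven atrophy gene in mouse muscle, moved the other way. It had 12.6, 13.2 and 11.4 CPM at ZT0, 20.1, 17.6 and 16.6 at ZT4, 64.3, 34.3 and 23.9 at ZT12, and 16.4, 16.2 and 14.1 at ZT16. The 3 ZT12 libraries stood above all others but spread widely, and Fbxo21 rose at ZT12 relative to ZT0 by 1.72 (SE 0.30, adjusted p = 0.00109). Its fold change stayed past the threshold without any 1 of the 6 libraries, and the call was lost when the fit held only the ZT12 and ZT0 groups.

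Across the 4 sedentary groups 13 of 71 members differed (F test, 3 TRIM, 6 FBXO and 4 ASB), beside 17.1% of all genes, so the families' share (18.3%) was near the background. Without ZT12 replicate 2 the F test count was 8. At ZT12 against ZT0 11 members passed, beside 16.1% of all genes, 5 higher and 6 lower, beside 7.58% and 8.56%. Asb8 rose, with 109, 115 and 120 CPM at ZT12, against 87.7, 79.6 and 82.9 at ZT0 (log2 fold change 0.46, SE 0.06, adjusted p = 3.23e-05). Trim68 rose by 0.42 and Fbxo3 by 0.24. Trim7, which binds the glycogen primer glycogenin, had a log2 fold change of 0.40 and passed narrowly (adjusted p = 0.0495). Fbxo34 fell by 0.50 and Asb12 by 0.50, and Fbxo28, Fbxo11 and Trim27 fell by 0.24, 0.21 and 0.21. The count was 5 of 71 without ZT12 replicate 2, 6 without ZT0 replicate 3 and 7 without ZT0 replicate 2, and Asb2, Asb8, Fbxo21, Fbxo34 and Trim68 passed without any 1 library. Endothelial markers moved over the same interval (6 of 9 fell, 0 rose; summed level 258 to 329 CPM at ZT12, against 348 to 406 at ZT0), and their part in these results was not tested. In the F test across the 4 times all 17 genes of a clock list passed, and 1 of 13 genes of the cullin core list (Cul4b, adjusted p = 0.0134).

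At ZT16 against ZT4 6 members passed, beside 7.16% of all genes, 1 higher and 5 lower, beside 3.49% and 3.67%. Trim13 (chromosome 14, 61598226 to 61610287), a ligase of the endoplasmic reticulum, had 4.02, 3.77 and 3.5 CPM at ZT16, against 6.96, 5.19 and 6.5 at ZT4, and fell by 0.73 (SE 0.10, adjusted p = 0.000106). Fbxo10, whose product targets the survival protein Bcl2, had 4.13, 4.24 and 4.54 CPM at ZT16, against 6.42, 6.91 and 6.95 at ZT4, and fell by 0.65 (SE 0.12, adjusted p = 0.00242). In both genes no ZT16 library reached the lowest ZT4 library, and 26.3% of all genes did not overlap. Trim7 rose by 0.51, with 30.7, 29.3 and 24.6 CPM at ZT16, against 18.6, 21.4 and 19.2 at ZT4. Asb12 fell by 0.51, Trim2 by 0.58 and Trim25 by 0.30. The last 4 calls were each lost without several single libraries (Asb12 and Trim7 without ZT4 replicate 1 or 3 or ZT16 replicate 1 or 2; Trim25 and Trim2 without ZT4 replicate 1 or 2 or ZT16 replicate 2 or 3), with adjusted p up to 0.103 for Trim7, and the count was 2 without ZT4 replicate 1 or ZT16 replicate 2.

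**Figure D2:**
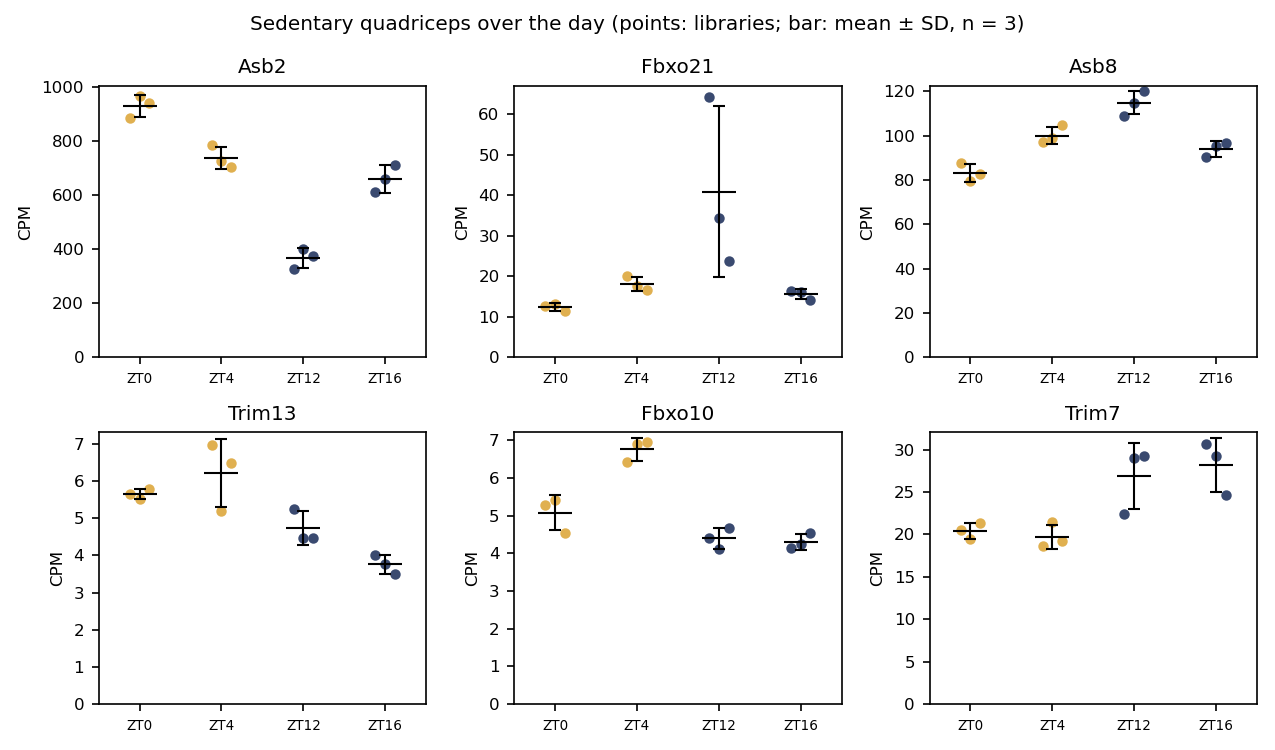
CPM of 6 genes in sedentary quadriceps at ZT0, ZT4, ZT12 and ZT16 (points: 3 libraries per time, orange at ZT0 and ZT4 and blue at ZT12 and ZT16; bar: mean and SD). Asb2 is lowest and Fbxo21 highest at ZT12, while Trim13 and Fbxo10 are lower at ZT16 than at ZT4.

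The gastrocnemius samples hold a ZT16 against ZT4 contrast in other mice and another muscle. With wheel access by day or by night, the time of day there cannot be told apart from the wheel period. ZT4 falls in the day and ZT16 in the night, so neither schedule repeats the sedentary contrast. Of the 6 members that passed in sedentary quadriceps, 5 (Asb12, Fbxo10, Trim13, Trim2 and Trim7) also passed in the same direction in night-wheel gastrocnemius, which is 83.3% of the 6 and 22.7% of the 22 members that passed there. Over all genes the shares were 70.7% and 27.8%. In day-wheel gastrocnemius 2 of the 6 (Asb12 and Trim7) passed in the same direction, 33.3% of the 6 and 11.1% of 18, beside 35.4% and 17.6% over all genes. The sedentary and the wheel comparisons share no library.

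Promoters were read from RefSeq (GRCm38.p6, 250 bases before to 50 after the start), and 57 of the 71 members had 1 listed. The E-box CACGTG, the motif bound by clock factors such as Bmal1 and Clock and the same on both strands, occurred in the promoters of 6 of these 57 members (10.5%), Asb2, Asb15, Fbxo10, Fbxo7, Trim25 and Trim39, against 8.09% of all genes. The FoxO motif GTAAACA, searched on both strands, occurred in 3 of 57 (5.26%: Asb16, Asb18 and Trim67), against 4.05% of all genes. Here all genes are the 27025 with a listed promoter, whatever their level in muscle. Both shares lie near those of all genes, and a match is a description of the letters only. The promoters of Asb2 (1 of 2 listed, chr12:103355952-103356251, minus strand), Asb15 (chr6:24527894-24528193, plus strand) and Fbxo10 (1 of 2 listed, chr4:45084555-45084854, minus strand) are shown as examples. These genes differed between times of day in quadriceps or gastrocnemius, as did the other E-box members Fbxo7, Trim25 and Trim39. Capitals mark the E-box, which begins at -23 in Asb2, -200 in Asb15 and -15 in Fbxo10 relative to the start.
Asb2 promoter: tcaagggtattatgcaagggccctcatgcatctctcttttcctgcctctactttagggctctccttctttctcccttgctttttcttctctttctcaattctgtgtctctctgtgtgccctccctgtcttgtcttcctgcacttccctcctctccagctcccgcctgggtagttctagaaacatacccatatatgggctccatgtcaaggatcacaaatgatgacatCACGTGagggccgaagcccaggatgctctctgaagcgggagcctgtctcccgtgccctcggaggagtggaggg
Asb15 promoter: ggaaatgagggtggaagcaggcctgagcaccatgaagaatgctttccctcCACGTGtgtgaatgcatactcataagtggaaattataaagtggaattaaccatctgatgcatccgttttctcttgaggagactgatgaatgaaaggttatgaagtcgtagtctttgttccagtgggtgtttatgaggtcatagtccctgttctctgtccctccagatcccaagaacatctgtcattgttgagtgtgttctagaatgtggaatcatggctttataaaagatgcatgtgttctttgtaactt
Fbxo10 promoter: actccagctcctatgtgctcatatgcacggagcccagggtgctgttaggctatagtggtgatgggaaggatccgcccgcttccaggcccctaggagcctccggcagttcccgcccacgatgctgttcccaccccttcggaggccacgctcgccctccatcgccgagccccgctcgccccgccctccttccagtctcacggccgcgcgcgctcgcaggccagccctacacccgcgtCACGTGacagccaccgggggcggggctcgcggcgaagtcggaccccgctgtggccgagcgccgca

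When the treadmill run ended, few members differed. In the ZT0 session 5 of 71 passed against sedentary ZT0 quadriceps, beside 6.82% of all genes, 1 higher and 4 lower, beside 4.29% and 2.53%. Trim13 had 4.26, 4.49 and 4.39 CPM at +0h, against 5.66, 5.52 and 5.78 in sedentary muscle (log2 fold change -0.37, SE 0.10, adjusted p = 0.0317). Fbxo9, which targets regulators of mTOR, had 32.3, 35.2 and 35.5 CPM at +0h, against 42.9, 40.4 and 39.4 in sedentary muscle (fell by 0.25, adjusted p = 0.0248). Asb14 fell by 0.235 and Fbxo22 by 0.16, and Trim28, a transcriptional corepressor, rose by 0.18. In these 5 genes the groups did not overlap, as in 24.9% of all genes. The count was 0 of 71 without +0h replicate 1, without sedentary replicate 1 or with only the groups compared in the fit, and 2 without +0h replicate 3 or sedentary replicate 2 or 3. Of all libraries +0h replicate 3 had the lowest total (27352875 counts), with uneven lanes (10327419 and 17025769). The summed macrophage markers did not overlap between the groups (173 to 208 CPM at +0h, against 126 to 143 in sedentary ZT0 muscle), nor did the satellite cell markers (33.6 to 38.3, against 29.6 to 32.9) or the neutrophil markers (2.14 to 2.36, against 1.4 to 1.44), though 0 of the 9, 6 and 4 genes tested passed by edgeR (5, 1 and 2 at an unadjusted p under 0.05). Their part in these results was not tested. Summed adipocyte markers ran from 298 to 1940 CPM at +0h, against 232 to 664 in sedentary ZT0 muscle, and with the adipocyte or the slow-fibre score as a covariate 2 passed.

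In the ZT12 session 2 members passed at +0h against sedentary ZT12 quadriceps, beside 4.6% of all genes (3.19% higher, 1.41% lower). Trim21, the cytosolic antibody receptor, had 1.27, 0.982 and 1.73 CPM at +0h, against 3, 2.84 and 2.47 in sedentary muscle, and fell by 1.06 (SE 0.21, adjusted p = 0.00384). Its groups did not overlap, as in 20.2% of all genes. It kept this call without any 1 library and against sedentary ZT16 muscle. Asb2 had 563, 558 and 512 CPM at +0h, against 327, 402 and 375 in sedentary ZT12 muscle, and rose by 0.56 (SE 0.11, adjusted p = 0.00468). Sedentary Asb2 averaged 660 ± 50.8 CPM at ZT16, against 368 ± 37.9 at ZT12 (SD, n = 3 each), and with the ZT16 libraries as the control the +0h fold change of Asb2 was -0.28 (adjusted p = 0.148). In this session summed adipocyte markers ran from 236 to 802 CPM at +0h, against 457 to 2410 in sedentary ZT12 muscle. The difference between the +0h responses of the sessions passed for 0 of 71 members by edgeR and by DESeq2 (9 at an unadjusted p under 0.05 by edgeR), beside 0% of all genes in the edgeR fit.

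At +3h more members had moved, as had more genes in general. In the ZT0 session 14 of 71 passed against sedentary ZT4 quadriceps, beside 13.6% of all genes. Of these 14, 13 were lower, beside 6.63% of all genes lower and 6.96% higher. By family 5 of 32 TRIM genes, 4 of 23 FBXO genes and 4 of 16 ASB genes fell, and 1 ASB gene rose. The median log2 fold change was -0.077 over the 71 members and -0.005 over all genes. In the ZT12 session 15 passed against sedentary ZT16 quadriceps, beside 17.2% of all genes. Of these, 7 were higher and 8 lower, beside 8.7% and 8.53%, and the median was -0.071 over the members and -0.003 over all genes.

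The sessions share no library, and 6 members passed in both in the same direction, 42.9% of the 14 and 40% of the 15, beside 47.7% and 37.6% over all genes. Of these 6, 5 fell (Asb1, Asb7, Asb18, Fbxo42 and Trim7) and Asb5 rose. Asb18 had 7.8, 6.58 and 7.39 CPM at +3h in the ZT0 session, against 13, 10.2 and 12 in sedentary ZT4 muscle (log2 fold change -0.70, SE 0.13, adjusted p = 0.000955). In the ZT12 session it had 6.2, 5.85 and 5.4 CPM at +3h, against 8.76, 10.8 and 8.29 in sedentary ZT16 muscle (-0.68, SE 0.13, adjusted p = 0.000914). In both sessions every run library lay below every sedentary one (30.7% and 32.9% of all genes did not overlap in the ZT0 and ZT12 sessions), and both calls held without any 1 library. Asb1 had 12.7, 15.4 and 14.9 CPM at +3h in the ZT0 session, against 16.8, 17.5 and 17.9 in sedentary muscle, and 13.2, 12.4 and 12.1 CPM at +3h in the ZT12 session, against 18.6, 20.4 and 18.1. It fell by 0.28 (SE 0.08, adjusted p = 0.021) in the ZT0 session and by 0.60 (SE 0.08, adjusted p = 2.67e-05) in the ZT12 session. Asb7 fell by 0.26 and 0.46 in the ZT0 and ZT12 sessions, and Fbxo42 by 0.26 and 0.24. The gene span of Asb7 overlaps that of Lins1, so reads may be shared where exons overlap, which was not checked.

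Trim7 averaged 14.4 ± 1.41 CPM at +3h in the ZT0 session, against 19.7 ± 1.43 in sedentary ZT4 muscle (SD, n = 3 each), and 23.8, 20 and 17.4 CPM at +3h in the ZT12 session, against 30.7, 29.3 and 24.6 in sedentary ZT16 muscle. It fell by 0.46 (SE 0.14, adjusted p = 0.0295) and by 0.47 (SE 0.14, adjusted p = 0.0207). Asb5 (chromosome 8, 54550331 to 54587842) rose, with 345, 299 and 223 CPM at +3h in the ZT0 session, against 167, 221 and 189 in sedentary muscle (0.585, SE 0.165, adjusted p = 0.0225). In the ZT12 session it had 203, 229 and 247 CPM at +3h, against 122, 159 and 193 in sedentary muscle (0.52, SE 0.16, adjusted p = 0.0351). The run and sedentary libraries of Asb5 and Trim7 did not overlap in either session. These calls and those of Asb1 and Fbxo42 in the ZT0 session were lost without 3 or 4 single libraries each: for Asb5 run replicate 1 or 2 or sedentary replicate 1 or 3 (ZT0) and run replicate 2 or 3 or sedentary replicate 1 or 2 (ZT12), for Trim7 run replicate 2 or 3 with sedentary replicate 2 or 3 (ZT0) or 1 or 2 (ZT12), for Asb1 run replicate 1 or sedentary replicate 2 or 3, and for Fbxo42 run replicate 1 or 2 or sedentary replicate 2 or 3. The adjusted p without 1 library reached 0.109 and 0.186 for Asb5 and 0.133 and 0.121 for Trim7.

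In the ZT0 session the smallest p was that of Trim13, with 4.15, 4.01 and 3.84 CPM at +3h, against 6.96, 5.19 and 6.5 in sedentary ZT4 muscle (log2 fold change -0.64, SE 0.10, adjusted p = 0.000247). No run library reached the lowest sedentary library, and the call held without any 1 of them. Asb4 fell by 0.66, Trim56, an innate immune ligase, by 0.57 and Trim11 by 0.445, and these 3 also passed without any 1 library. Fbxo10 fell by 0.47, Fbxo44 by 0.38, Fbxo7, which is tied to mitophagy, by 0.25 and Trim41 by 0.19. With sedentary ZT0 muscle in place of ZT4, Fbxo10 (log2 fold change -0.06), Fbxo7, Fbxo44, Fbxo42 and Trim56 did not pass. Fbxo10 also lost its call without run replicate 1 or sedentary replicate 3, and Fbxo44 and Fbxo7 without 5 of the 6 libraries each, taken out singly. The whole count ran from 5 without sedentary ZT4 replicate 3 to 12, with 8 without run replicate 1 or sedentary replicate 2 and 9 without sedentary replicate 1.

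In the ZT12 session Trim25, an activator of the RNA sensor RIG-I, had 18.1, 20.2 and 18.1 CPM at +3h, against 14.6, 14.3 and 12.3 in sedentary ZT16 muscle, and rose by 0.455 (SE 0.08, adjusted p = 0.000688). In the ZT0 session its libraries stood at 16.8, 15.9 and 15.3 CPM at +3h, against 17.9, 16.8 and 15.8 in sedentary ZT4 muscle. Trim25 was the 1 member whose +3h response differed between sessions, beside 1.59% of all genes, 0.649% higher and 0.941% lower (difference 0.53, ZT12 session minus ZT0 session, SE 0.12, adjusted p = 0.028; 13 members at an unadjusted p under 0.05). That call was lost without any of 5 single libraries: run replicate 3 or sedentary replicate 1 or 2 of the ZT0 session, run replicate 2 or sedentary replicate 3 of the ZT12 session. Fbxo31, which targets cyclin D1, had 215, 235 and 250 CPM at +3h in the ZT12 session, against 164, 186 and 160 in sedentary muscle (rose by 0.46, SE 0.105, adjusted p = 0.00424), and passed without any 1 library.

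Also in the ZT12 session Asb12 rose by 0.50, Trim2 by 0.495, Fbxo34 by 0.40 and Fbxo6, a receptor for N-glycosylated proteins, by 0.24. Trim45 fell by 0.60, Trim35 by 0.35 and Fbxo11, which targets Bcl6, by 0.22. Fbxo34 lost its call without run replicate 2, Asb12 without run replicate 3 or sedentary replicate 1, Trim35 without run replicate 2 or 3 or sedentary replicate 1, and Trim2 without run replicate 2 or 3 or sedentary replicate 2 or 3. With sedentary ZT12 muscle in place of ZT16, Trim45 and Trim2 did not pass. The count was 8 without run replicate 3 and 9 without run replicate 2. With only the compared groups in the fit 9 passed, and 7 in the ZT0 session. Of 8 neutrophil markers 4 could be tested, and 2 rose at +3h in the ZT12 session (summed level of the 8, 1.04 to 5.12 CPM at +3h, against 0.976 to 1.51 in sedentary muscle). Of 6 satellite cell markers 3 rose and 1 fell there (summed level 36.8 to 38.6 CPM at +3h, against 30.9 to 33.3). In the ZT0 session 0 rose and 1 fell (36.6 to 39 CPM at +3h, against 32.3 to 35.9 in sedentary ZT4 muscle). The part of either in these results was not tested.

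**Figure D3:**
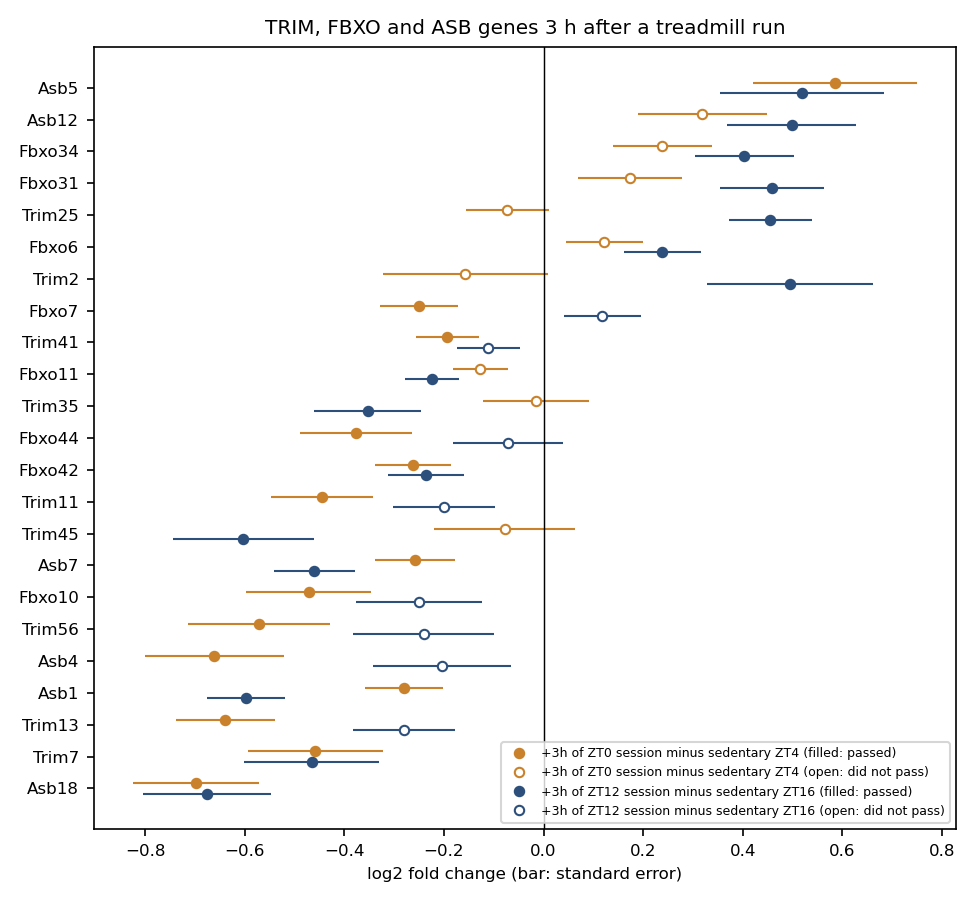
Log2 fold change (bar: SE) at +3h in the ZT0 session against sedentary ZT4 (orange) and of the ZT12 session against sedentary ZT16 (blue), for the 23 members that passed in either. Filled points passed; Asb18, Trim7, Asb1, Asb7, Fbxo42 and Asb5 are filled in both.

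Among members with a known muscle role, Trim54, Trim55, Trim72, Trim32, Trim28, Fbxo40, Fbxo21, Asb2 and Asb15 did not pass at +3h, while Fbxo31 passed in the ZT12 session. Asb5, among the most abundant members, passed in both sessions. Trim54 had a log2 fold change of 0.19 (SE 0.09) in each session, with 370, 430 and 404 CPM at +3h in the ZT0 session, against 337, 371 and 347 in sedentary ZT4 muscle. Fbxo40 stood at 240, 249 and 238 CPM at +3h in the ZT0 session, against 199, 215 and 214 in sedentary muscle (0.21, SE 0.08, adjusted p = 0.0961). Against sedentary ZT0 in place of ZT4 muscle both passed in the ZT0 session. Trim55 (MuRF2) had fold changes of -0.01 and -0.13, Trim72 of 0.13 and 0.07, Asb15 of -0.25 and -0.27 and Trim32 of -0.09 and -0.20 in the ZT0 and ZT12 sessions. By contrast Trim63, left out of the families here, had 1130, 1270 and 1370 CPM at +3h in the ZT0 session, against 216, 304 and 257 in sedentary muscle. Fbxo32 had 493, 861 and 1050 CPM at +3h in the ZT0 session, against 448, 569 and 488 in sedentary ZT4 muscle, and these overlapped (0.68, SE 0.23, adjusted p = 0.0534). In the ZT12 session it averaged 1200 ± 108 CPM at +3h, against 196 ± 42.5 in sedentary ZT16 muscle (SD, n = 3 each), and its +3h response differed between sessions (ZT12 minus ZT0 1.93, SE 0.32, adjusted p = 0.00471).

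Lists of the machinery around these receptors, chosen with earlier results of these data known, gave the following counts at +3h. Of 13 cullin core genes 0 passed in either session by edgeR (2 and 3 at an unadjusted p under 0.05 in the ZT0 and ZT12 sessions). Over all genes 6.96% rose and 6.63% fell in the ZT0 session, and 8.7% rose and 8.53% fell in the ZT12 session. Of 32 genes of ubiquitin-activating and -conjugating enzymes 5 rose and 0 fell in each, with Ube2g2 at 95.9 CPM on average at +3h in the ZT0 session, against 80.1 in sedentary muscle (log2 fold change 0.26, adjusted p = 0.000983). Of 15 other SOCS-box genes 3 rose and 2 fell in the ZT0 session, and 2 rose and 6 fell in the ZT12 session. Spsb1, a SOCS-box receptor, rose by 1.05 in the ZT0 session and by 1.81 in the ZT12 session. Of 26 F-box genes of the FBXL and FBXW classes 2 rose and 2 fell in the ZT0 session, and 2 rose and 3 fell in the ZT12 session, and Fbxw7, which targets cyclin E, fell by 0.33 and 0.69.

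In gastrocnemius more members differed between wheel schedules at ZT4 than at ZT16. Between day-wheel and night-wheel mice at ZT4 19 of 71 members differed (10 TRIM, 3 FBXO and 6 ASB), beside 13.1% of all genes, 6 higher and 13 lower with the wheel by day, beside 6.36% and 6.78%. At ZT16 2 differed, beside 0.565% of all genes (0.275% higher, 0.289% lower). Of the 13 that were lower at ZT4, 8 were TRIM genes, while the TRIM genes Trim47 and Trim23 were higher. TRIM genes make up 32 of the 71 members. Trim7 (chromosome 11, 48826138 to 48851192) averaged 16.4 ± 0.828 CPM in day-wheel mice, against 25.4 ± 3.07 in night-wheel mice (SD, n = 4 each; log2 fold change -0.64, SE 0.08, adjusted p = 6.35e-05). Trim13 had 4.37, 5.56, 5.36 and 4.99 CPM in day-wheel mice, against 8.17, 8.65, 9.58 and 7.55 in night-wheel mice (fell by 0.74, SE 0.12, adjusted p = 0.000526). Trim16, which takes part in the autophagy of damaged membranes, had 33.4, 33, 33.9 and 33.9 CPM in day-wheel mice, against 43.7, 45.6, 43.6 and 50.2 in night-wheel mice (fell by 0.45, SE 0.07, adjusted p = 0.000694). In these 3 genes, as in 21.1% of all genes, the schedules did not overlap.

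Fbxo10 fell by 0.57, Asb18 by 0.435, Trim25 by 0.33, Trim35 by 0.31, Fbxo7 by 0.29, Trim56 by 0.30, Fbxo21 by 0.26, Trim41 by 0.21, Trim26 by 0.20 and Asb8 by 0.14 in day-wheel mice at ZT4. Asb15 (chromosome 6, 24528144 to 24573164), an ASB gene linked to muscle growth in rats, rose, with 99.3, 86.8, 113 and 97.3 CPM in day-wheel mice, against 67.4, 62.4, 69.6 and 61.1 in night-wheel mice (0.61, SE 0.09, adjusted p = 0.000381). Asb11 rose by 0.38, Trim47 by 0.295, Asb3 by 0.25, Trim23 by 0.21 and Asb14 by 0.20. The 10 members with the smallest p passed without any 1 library (Trim7, Asb15, Trim13, Trim16, Trim35, Trim41, Fbxo10, Trim25, Asb18 and Trim47). Asb14 and Trim26 lost the call without night-wheel replicate 3, Trim26 and Asb11 without day-wheel replicate 3, Asb11 without night-wheel replicate 2 and Fbxo21 without 6 of the 8 libraries, and the whole count was 12 without night-wheel ZT4 replicate 3. Endothelial markers moved in the same comparison (1 of 9 rose and 5 fell; summed level 285 to 313 CPM in day-wheel mice, against 333 to 366 in night-wheel mice). Of 9 macrophage markers 1 fell (95.1 to 112 CPM in day-wheel mice, against 117 to 143 in night-wheel mice), and of 8 fibroblast markers 1 fell (679 to 969 CPM, against 937 to 1270). The part of these markers in the results was not tested. Trim7 and Trim41 are neighbours on chromosome 11, 7938 bases apart. Among the members that passed somewhere, Trim13 overlaps Dleu2 and Kcnrg, Fbxo10 overlaps Polr1e, Asb7 overlaps Lins1, Asb3 overlaps Chac2, Fbxo11 overlaps Msh6, Fbxo22 overlaps Nrg4 and Fbxo7 overlaps Syn3. These overlaps are of whole gene spans, introns included, and shared exons were not looked for. Reads may be shared where exons overlap and the counting ignores strand. The sources used here do not state whether it does.

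At ZT16 Trim47 (chromosome 11, 116105750 to 116110235) was lower in day-wheel mice, with 9.06, 8.03, 8.32 and 7.71 CPM, against 10, 12.1, 12.7 and 12 in night-wheel mice (-0.50, SE 0.07, adjusted p = 0.00313). The direction was opposite to that at ZT4, where Trim47 had 8.49, 8.38, 8.37 and 9 CPM in day-wheel mice, against 7.54, 6.8, 6.79 and 6.79 in night-wheel mice. Fbxo9 was the other, with a rise of 0.19 (adjusted p = 0.0478). That call was lost without any 1 of the 8 libraries, and the ZT16 count was then 1, or 2 with another member without day-wheel replicate 1. The schedules did not overlap at ZT16 in Trim47, as in 6.67% of all genes.

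**Figure D4:**
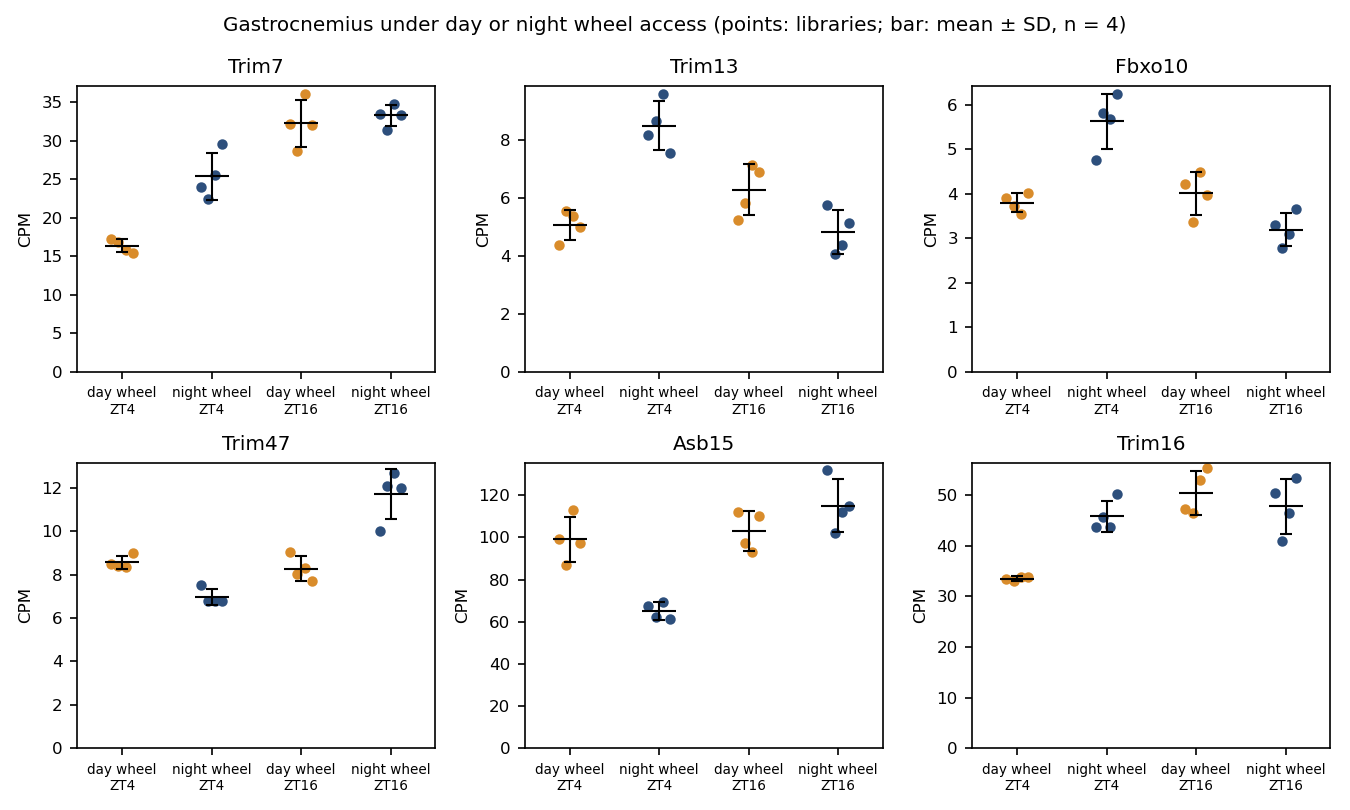
CPM of 6 genes in gastrocnemius of day-wheel (orange) and night-wheel (blue) mice at ZT4 and ZT16 (points: 4 libraries per group; bar: mean and SD). At ZT4 Trim7, Trim13, Fbxo10 and Trim16 are lower and Asb15 and Trim47 higher with the wheel by day, while at ZT16 only Trim47 among these passed.

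At ZT16 against ZT4 18 of 71 members changed with the wheel by day, beside 14.9% of all genes. Of the 18, 14 were higher and 4 lower, beside 7.7% and 7.17% of all genes. With the wheel by night 22 changed, beside 18.8% of all genes, 8 of them higher and 14 lower, beside 9.41% and 9.38%. In night-wheel mice 4 of 9 macrophage markers fell (summed level 95.6 to 110 CPM at ZT16, against 117 to 143 at ZT4), as did 3 of 8 fibroblast markers (687 to 893 CPM, against 937 to 1270), and their part in these results was not tested. The 6 shared in direction were Asb12 and Trim55, which fell at ZT16 relative to ZT4, and Fbxo21, Trim11, Trim54 and Trim7, which rose (27.3% of the 22 and 33.3% of the 18, beside 26.9% and 34% over all genes). Trim7 had 32.2, 28.7, 36.1 and 32 CPM at ZT16 with the wheel by day, and rose by 0.98 relative to ZT4 (SE 0.08, adjusted p = 2.54e-07). With the wheel by night it had 33.5, 31.4, 34.8 and 33.3 CPM at ZT16 and rose by 0.38 (adjusted p = 0.00133). Asb12 had 23, 22.7, 21 and 22.9 CPM at ZT16, against 29.4, 28.2, 26.4 and 28.9 at ZT4 in day-wheel mice (fell by 0.33), and it fell by 0.56 in night-wheel mice. Trim54, Trim55 and Fbxo21 moved by 0.32, -0.22 and 0.455 with the wheel by day. With the wheel by night they moved by 0.19, -0.14 and 0.34, where the calls of Trim54 and Trim55 were each lost without most single libraries (adjusted p up to 0.115 and 0.136) and with the slow-fibre score as a covariate.

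With the wheel by day Trim16 rose by 0.59, Trim24 by 0.36, Trim11 by 0.35, Asb8 by 0.23, Fbxo9 by 0.23 and Trim41 by 0.22, and Asb5 fell by 0.445 and Asb14 by 0.31. With the wheel by night the largest rises were those of Asb15 (132, 102, 112 and 115 CPM at ZT16, against 67.4, 62.4, 69.6 and 61.1 at ZT4; 0.82, SE 0.09, adjusted p = 7.71e-06) and of Trim47 (0.75, adjusted p = 1.3e-06). Fbxo10 fell by 0.81, Trim13 by 0.81, Asb4 by 0.66, Fbxo34 by 0.44, Trim35 by 0.41 and Fbxo40 by 0.22, and Trim39 rose by 0.25. With the slow-fibre score as a covariate 13 members passed in night-wheel mice in place of 22.

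The change from ZT4 to ZT16 differed between schedules for 13 members, beside 9.74% of all genes, 10 above 0 and 3 below, beside 4.68% and 5.07%. The difference, day minus night, was -0.80 for Trim47, -0.77 for Asb15 and -0.27 for Asb14. It was 1.12 for Trim13, 0.89 for Fbxo10, 0.73 for Trim21, 0.60 for Trim7, 0.53 for Trim16, 0.42 for Trim35, 0.33 for Fbxo34, 0.31 for Trim26, 0.25 for Fbxo9 and 0.24 for Trim41. Trim13 had 5.25, 5.82, 7.13 and 6.9 CPM at ZT16 with the wheel by day, against 4.37, 5.56, 5.36 and 4.99 at ZT4, while with the wheel by night it had 5.76, 4.05, 4.36 and 5.13 CPM at ZT16, against 8.17, 8.65, 9.58 and 7.55 at ZT4. The ZT16 and ZT4 libraries overlapped in day-wheel mice and not in night-wheel mice, where 20.3% and 21.3% of all genes did not overlap. Asb14 and Trim21 lost this call without any of 5 and of 10 single libraries.

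Placed side by side, Trim13 was lower in 5 contrasts of 2 groups: at both times after the run of the ZT0 session, at ZT16 against ZT4 in sedentary quadriceps and in night-wheel gastrocnemius, and with the wheel by day at ZT4. These are not all independent: the +3h contrast and the sedentary ZT16 contrast share the sedentary ZT4 libraries, and both wheel contrasts share the night-wheel ZT4 libraries. Trim7 was lower at +3h of both sessions and with the wheel by day at ZT4, and higher at ZT16 than at ZT4 in all 3 settings. Here the +3h contrasts share their sedentary ZT4 and ZT16 libraries with the sedentary ZT16 contrast, and the schedule contrast shares both its ZT4 groups with the wheel contrasts over time. Trim7 passed in 9 of the 14 comparisons and Trim13 in 7, more than any other member. Both counts include the sedentary F test and the difference between wheel schedules, which reuse libraries of the contrasts of 2 groups. As given above, the Trim7 calls at +3h and at sedentary ZT16 were lost without several single libraries. Its sedentary ZT12 call passed narrowly, and the Trim13 call at +0h was lost without +0h replicate 1 or sedentary replicate 1.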

How the data were processed

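The authors deposited 1 table of estimated counts per gene and sequencing lane, with 80 columns for 40 libraries. Per the labels' protocols, snap-frozen muscle gave RNA by TRI-Reagent and a column kit, and a stranded mRNA library kit was used. The submitters' processing notes name kallisto 0.46.2, DESeq2 1.26.0 and bcl2fastq 2.20.0.422, and mm10 and GRCm38.p6 as builds. The sources used here do not state how transcripts were summed to genes. kallisto divides reads that fit several transcripts by a model, so overlapping and near-identical genes are less certain.

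Here the 2 lanes were summed and rounded to whole counts, and 23614 of 23621 gene IDs were matched to symbols in a RefSeq gene table. Tests used edgeR 4.0.16 (limma 3.58.1, R 4.3.3; quasi-likelihood, robust, TMM, filter with a minimum count of 10), 1 fit per muscle over all groups, with Benjamini-Hochberg adjustment over all genes tested. CPM use TMM-scaled library sizes, and errors are SD over mice. DESeq2 1.42.0 served as an alternative. The procedure was tested on simulated data. No 2 libraries of a group agreed within sampling noise.

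The members and gene lists were chosen with earlier results of these data known. Genes named are the members that passed, up to 12 per comparison by p, with the 3 largest rises and falls, the 5 most abundant per family, the member with the widest range and 10 members with a known muscle role; other members that passed were named after their values were seen. Alternatives were DESeq2, RLE scaling, no filter, a fit of only the groups compared, a replicate block, slow-fibre and adipocyte scores as covariates, the other sedentary control and each library left out. P-values set a difference between groups against the spread between these mice, estimated over all groups of a muscle.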

Additional observations from a re-analysis of the deposited data

Results flagged for a closer look

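In gastrocnemius, 108 groups of 4 libraries (27 named members) were searched for a library far from the other 3, and 9 were found; chance gives about 1 in 20 groups. The libraries stood at 1.75 CPM for Trim21, 49.1 for Fbxo9, 119 for Asb14 and 21 for Asb12 in day-wheel ZT16, at 8.55 for Trim11 and 13.2 for Fbxo34 in day-wheel ZT4, at 7.54 for Trim47 and 40.9 for Fbxo9 in night-wheel ZT4, and at 387 for Trim54 in night-wheel ZT16.

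Members whose response differed between settings in a test of the difference itself were Trim25 at +3h, with 0.53 (ZT12 session minus ZT0 session), and 13 members in the change from ZT4 to ZT16 (day wheel minus night wheel). These were Trim13 (1.12), Fbxo10 (0.89), Trim21 (0.73), Trim7 (0.60), Trim16 (0.53), Trim35 (0.42), Fbxo34 (0.33), Trim26 (0.31), Fbxo9 (0.25) and Trim41 (0.24), and, below 0, Trim47 (-0.80), Asb15 (-0.77) and Asb14 (-0.27). With the replicate number as a block and with the slow-fibre score as a covariate, Trim21 no longer passed. Causes were not tested.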

How the results depend on the processing

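Of 107 calls on named members, 62 kept their direction and threshold in every alternative and without any 1 library; over the alternatives 710 of 781 single results did, and with 1 library left out 705 of 866. The number of members that passed moved by more than 1.5 times as follows. At +0h of the ZT0 session (5) it was 2 without the filter, with the slow-fibre or the adipocyte score as a covariate, and 0 with only the groups compared. At +0h of the ZT12 session (2) it was 4 with DESeq2 or with sedentary ZT16 as the control, where the fold change of Asb2 was -0.28 against 0.56. At +3h with only the groups compared it was 7 (ZT0 session, 14), 9 (ZT12 session, 15) and 0 for the difference between sessions (1). Between schedules at ZT16 (2) it was 1 without the filter, with either score, with the replicate block or with only the groups compared. From ZT4 to ZT16 with the wheel by night (22) it was 13 with the slow-fibre score. The cause of these moves was not tested; the smaller fits hold fewer libraries.

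With 1 library left out the counts ran from 0 to 6 and 2 to 4 (+0h, ZT0 and ZT12 sessions), 5 to 12 and 8 to 16 (+3h), 0 to 0 and 0 to 1 (differences between sessions at +0h and +3h), 8 to 14 (4 sedentary times), 5 to 12 (ZT12 against ZT0), 2 to 5 (ZT16 against ZT4), 12 to 18 and 1 to 2 (schedules at ZT4 and ZT16), 14 to 17 and 15 to 18 (ZT16 against ZT4, day and night wheel) and 11 to 16 (difference of these). With the replicate block the members that passed were 4, 2, 13, 15, 0 and 1 in the 6 treadmill comparisons, 12, 11 and 6 in sedentary muscle, and 20, 1, 16, 19 and 14 in gastrocnemius, in the same order. Deviations of same-numbered quadriceps samples from their group means had a median correlation of 0.002 (range -0.42 to 0.304). In gastrocnemius the median was 0.005 (range -0.129 to 0.132). These medians give no sign that the numbers pair the samples, but they cannot show that the samples were unpaired.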
